A study of Mus musculus with 4 samples.

Results

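The chemokine and chemokine receptor genes were examined as the protein-coding genes of the mm9 annotation whose symbol is Ccl, Cxcl, Ccr or Cxcr followed directly by a digit. They make up 54 of the 22367 protein-coding gene records and carry 53 symbols, because *Ccl25* has overlapping records under 2 gene identifiers. Of the 54 records, 24 are CC ligands, 12 are CXC ligands, 11 are CC receptors and 7 are CXC receptors. Their position at the nuclear envelope (NE) was read by DamID, in which Dam methylase fused to LaminB1 marks the GATC sites of DNA close to the nuclear lamina, and unfused Dam serves as the accessibility control. Primary hepatocytes were isolated from wild-type (WT) C57BL/6 mice and from mice on the same background with a deletion of *Tm7sf2* (KO), aged 12 to 16 weeks. *Tm7sf2* encodes NET47, an NE transmembrane protein with sterol reductase activity. Cultured cells of each genotype received a lentivirus carrying either Dam-LaminB1 or Dam alone, and DNA of 4 mice was pooled for each of the 4 resulting libraries.

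The authors turned each genotype's log2 ratio of Dam-LaminB1 to Dam into a list of lamina-associated domains (LADs), and subtracted the lists to obtain differential regions (DRs) that were in LADs of WT only or of KO only. The lists hold positions, with no signal, score or read number, so the depth behind a border is unknown from them. The study describes fewer usable reads for the KO than for WT, and the part of that difference in the values was not tested. There is 1 library pair per genotype, so no difference between WT and KO carries an error or a test, and genes that lie side by side share LADs and are not replicates. The lists also hold no expression, so the hepatocyte label could not be checked against marker levels.

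Chemokines are small secreted proteins that draw leukocytes along concentration gradients, and they act through G protein-coupled receptors on the surface of those cells. CC and CXC chemokines are named for the spacing of their first cysteines, and many of their genes arose by tandem duplication and still lie in clusters. In the liver, hepatocytes, endothelial cells and Kupffer cells can release chemokines upon injury or infection, whereas most of the receptors are carried by blood and lymphoid cells.

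Genes that shared 1 base or more with a WT-only DR were classed as PI (peripheral to interior), those that did so with a KO-only DR as IP (interior to peripheral), and those that met both as ambiguous (AMB). Of the rest, genes that touched LADs in both genotypes were classed as PP and the others as II. DamID reads position at GATC sites, and 99.2% of the 16214 LAD borders in WT and 99.7% of the 32152 in KO lay within 4 bases of one. The borders that divide the *Ccl* genes of chromosome 11 and the *Ccr* genes of chromosome 9 are shown first, since the calls of the PI genes depend on them. Each line gives 40 bases of the plus strand of NCBIM37 (the same assembly as mm9), and capitals mark the GATC sites, within which the border falls.
WT LAD start before Ccl7, chr11:81854721-81854760: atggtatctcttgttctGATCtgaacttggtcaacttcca
KO LAD start after Ccl11, chr11:81878526-81878565: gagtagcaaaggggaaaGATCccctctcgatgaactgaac
KO LAD end before Ccl12, chr11:81907006-81907045: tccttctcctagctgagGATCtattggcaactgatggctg
KO LAD start after Ccl8, chr11:81956079-81956118: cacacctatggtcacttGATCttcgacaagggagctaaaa
KO LAD end within Ccr3, chr9:123943010-123943049: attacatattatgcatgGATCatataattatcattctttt
KO LAD start between Ccr3 and Ccr2, chr9:123967624-123967663: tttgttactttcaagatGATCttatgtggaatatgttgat
KO LAD end before Ccr2, chr9:124016018-124016057: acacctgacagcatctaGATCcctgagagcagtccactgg

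The start sites of *Ccl7*, *Ccl11*, *Ccl12*, *Ccl8* and *Ccr2* lay in a WT LAD and in no KO LAD, and their promoters are printed because these members share their calls with their neighbors in 2 clusters. Each line holds 250 bases before and 50 bases after the annotated start, read on the gene's strand, with GATC sites in capitals. *Ccl20*, 1 of the 4 members whose start site lay in a KO LAD only, is added as an example.
Ccl7 promoter, chr11:81858964-81859263, plus strand: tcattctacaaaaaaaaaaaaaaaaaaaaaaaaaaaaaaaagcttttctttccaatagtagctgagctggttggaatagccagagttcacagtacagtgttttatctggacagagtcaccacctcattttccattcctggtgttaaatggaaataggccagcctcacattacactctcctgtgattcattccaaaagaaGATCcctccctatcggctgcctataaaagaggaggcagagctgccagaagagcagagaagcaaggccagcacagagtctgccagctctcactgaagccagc
Ccl11 promoter, chr11:81871075-81871374, plus strand: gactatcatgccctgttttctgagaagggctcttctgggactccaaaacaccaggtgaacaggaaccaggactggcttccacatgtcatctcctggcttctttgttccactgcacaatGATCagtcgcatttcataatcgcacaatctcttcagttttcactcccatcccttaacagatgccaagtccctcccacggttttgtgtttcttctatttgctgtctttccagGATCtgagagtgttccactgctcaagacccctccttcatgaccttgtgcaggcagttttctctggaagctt
Ccl12 promoter, chr11:81915097-81915396, plus strand: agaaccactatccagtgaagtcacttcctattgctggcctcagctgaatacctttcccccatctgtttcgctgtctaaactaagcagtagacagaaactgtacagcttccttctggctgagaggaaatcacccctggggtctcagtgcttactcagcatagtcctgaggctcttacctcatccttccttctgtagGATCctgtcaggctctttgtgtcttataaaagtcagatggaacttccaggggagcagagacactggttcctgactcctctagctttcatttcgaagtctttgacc
Ccl8 promoter, chr11:81928437-81928736, plus strand: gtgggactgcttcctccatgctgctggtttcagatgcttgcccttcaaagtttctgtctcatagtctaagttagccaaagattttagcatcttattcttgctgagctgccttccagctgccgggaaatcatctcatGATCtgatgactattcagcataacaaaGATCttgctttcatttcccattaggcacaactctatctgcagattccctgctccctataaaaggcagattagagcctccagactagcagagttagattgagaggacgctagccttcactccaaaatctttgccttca
Ccr2 promoter, chr9:124016439-124016738, plus strand: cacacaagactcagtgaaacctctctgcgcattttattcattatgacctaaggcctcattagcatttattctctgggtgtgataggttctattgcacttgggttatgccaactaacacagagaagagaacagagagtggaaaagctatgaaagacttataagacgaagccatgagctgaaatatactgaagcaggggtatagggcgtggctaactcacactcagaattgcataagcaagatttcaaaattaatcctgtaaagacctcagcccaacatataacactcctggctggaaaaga
Ccl20 promoter, chr1:83113091-83113390, plus strand: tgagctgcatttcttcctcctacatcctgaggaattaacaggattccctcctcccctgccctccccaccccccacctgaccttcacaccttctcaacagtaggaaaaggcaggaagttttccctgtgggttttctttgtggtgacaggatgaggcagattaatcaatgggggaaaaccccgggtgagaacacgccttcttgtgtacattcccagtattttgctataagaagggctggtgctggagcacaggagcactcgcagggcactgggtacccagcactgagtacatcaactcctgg

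A GATC site (the same letters on both strands) was found in the windows of *Ccl7*, *Ccl11*, *Ccl12* and *Ccl8*, and in neither that of *Ccr2* nor that of *Ccl20*. Of the other members with a start site in a KO LAD only, *Ccl21b* held 1 site, *Ccr9* held 2 and *Cxcr6* held 0. Windows of the same length held one for 28 of the 54 members (51.9%) and for 46.2% of all protein-coding genes. The kappa B consensus, searched on both strands, with a window counted once however many matches it held, was in 10 members' windows (18.5%) against 4.74% of all windows. It was in that of *Ccl20* and of none of the other printed promoters, nor in those of *Ccl21b*, *Ccr9* and *Cxcr6*. Of the 10 windows, 8 belonged to II members. Those of *Cxcl5*, *Cxcl3*, *Cxcl1* and *Cxcl2* came from a single cluster of neighboring genes, and those of *Ccl5* and *Ccl9* from another, so the 10 are not independent. These matches are descriptions of the letters and not sites of binding.

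Over all 54 records, 7 were PI (13.0%), 6 were IP (11.1%), 3 were PP (5.56%), 37 were II (68.5%) and 1 was AMB (1.85%). Among all 22367 protein-coding genes the shares were 5.43% PI, 17.1% IP, 17.9% PP, 56.6% II and 2.96% AMB. PI calls were therefore a larger share of the members than of all genes, and IP and PP calls a smaller one, but the PI calls came from 2 clusters and 4 DRs. For IP the order turned when a 100 kb window around the gene was used, which gave 35.2% of the members and 27.1% of all genes. When each cluster or lone member was counted once, 2 of 26 held a PI member (7.69%) and 5 of 26 an IP member (19.2%). No such count was made over all genes, so these shares cannot be set beside the shares of single genes. The members are short, with a median span of 4.76 kb against 15.4 kb for all genes. Among genes of at most 10 kb, a limit chosen after seeing the data, 5 of 42 members were PI (11.9%) against 3.62% of all such genes, and 4 were IP (9.52%) against 9.22%.

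**Figure D1:**
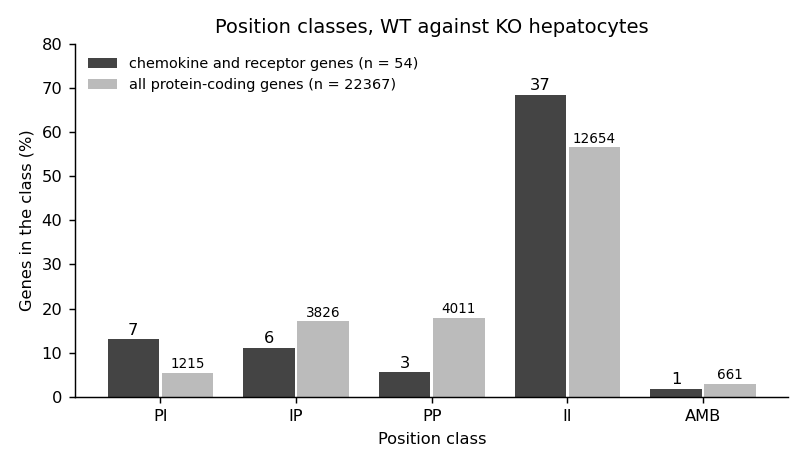
Share of genes in each position class (%), for the 54 chemokine and chemokine receptor gene records (dark) and all 22367 protein-coding genes (light), with the number of genes above each bar. PI was the class of 13.0% of the members and 5.43% of all genes, while PP was the class of 5.56% and 17.9%.

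A LAD of either genotype touched 17 members. WT LADs touched 13 (30.4% of all genes) and KO LADs touched 11 (41.7% of all genes). WT LADs held 31% of the summed span of the members and KO LADs held 27.2%, where all genes had 38.3% and 42.3%. With LADs at most 50 kb apart merged, the order for the members turned, to 43.1% in WT and 45.2% in KO, against 42.6% and 50.7% for all genes. Long annotated spans weigh heavily in these sums, above all those of *Ccl1* (129 kb) and *Ccr9* (104 kb). Averaged over members, the shares were 19.8% in WT and 12.7% in KO, against 25.7% and 31.8% over all genes.

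The clearest members were 6 genes that lay wholly in a WT LAD and were touched by no KO LAD, among them *Ccl7*, *Ccl11*, *Ccl12*, *Ccl8* and *Ccr2*. Over all genes this held for 308 (1.38%). These 6 genes sat in 3 DRs, so they stand for 3 regions rather than 6 independent loci. No member was the reverse, wholly in a KO LAD with no WT LAD, which held for 3.93% of all genes. Start sites were taken as the first base of the annotated gene record. They were in a WT LAD only for the same 6 members (2.62% of all genes). For 4 members they were in a KO LAD only (12.7%), and for 4 members in LADs of both genotypes (20.1%).

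**Figure D2:**
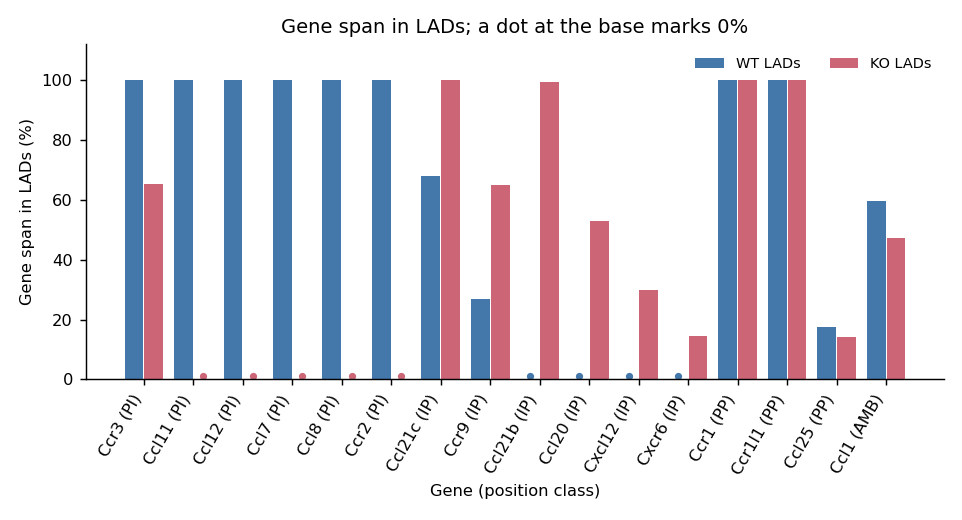
Share of the gene span (%) in WT LADs (blue) and KO LADs (red) for 16 of the members that a LAD touched, grouped by class, where a dot at the base marks 0%. The PI genes stand at 100% in WT, and all of those drawn are at 0% in KO but *Ccr3*, at 65.1%.

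The *Ccl2* to *Ccl1* cluster on chromosome 11 (81849073 to 82119192, 270 kb) encodes the monocyte chemoattractant proteins and their neighbors. WT LADs covered 78.6% of it and KO LADs 37.3%. In WT, a single LAD of 142 kb (81854741 to 81996554, with 410 GATC sites) ran from before *Ccl7* into the annotated span of *Ccl1*. In KO, LADs of 28.5 and 11.3 kb lay in that stretch, the first between *Ccl11* and *Ccl12* and the other between *Ccl8* and *Ccl1*. They thus lay between the genes and touched none of *Ccl7*, *Ccl11*, *Ccl12* and *Ccl8*.

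*Ccl7* (81859214 to 81861027, plus strand), which encodes the monocyte chemoattractant MCP-3, was 100% in the WT LAD and 0% in KO LADs, with its start site 19.3 kb from the nearest KO LAD. *Ccl11* (81871325 to 81876457, plus strand), which encodes the eosinophil attractant eotaxin, was 100% and 0%, 7.22 kb from a KO LAD. The pair shared a DR of 23.8 kb with 76 GATC sites (81854741 to 81878545).

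*Ccl12* (81915347 to 81916902, plus strand), encoding MCP-5, was also 100% in the WT LAD and 0% in KO LADs, and its start site was 8.32 kb from the nearest KO LAD. *Ccl8* (81928687 to 81930301, plus strand), encoding MCP-2, was 100% and 0%, at 21.7 kb. They shared the next DR, of 49.1 kb with 145 GATC sites (81907026 to 81956098). All 3 exons of each of these 4 genes were in a LAD of WT only. When LADs were joined across gaps of up to 50 kb, *Ccl12* and *Ccl8* became PP, while *Ccl7* and *Ccl11* were still PI.

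*Ccl2* (81849073 to 81850955, plus strand), which encodes MCP-1 and heads the cluster, was in no LAD of either genotype and was II. Its start site lay 5.67 kb from the WT LAD that held its neighbors and 29.5 kb from the nearest KO LAD. Of the II members it was among the 3 nearest to a LAD. With the 100 kb centered on the gene in place of its span, *Ccl2* was PI.

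*Ccl1* (81990159 to 82119192, minus strand), which encodes a ligand of Ccr8, was the AMB member. Its annotated span of 129 kb was 59.6% in WT LADs and 47.3% in KO LADs, with 27.7% in WT-only DRs and 23.5% in a KO-only DR. Its longest coding transcript by exonic bases takes up 3.15 kb of that span (81990161 to 81993314), and its 3 exons were all in a WT LAD only, in a DR of 29.1 kb (81967445 to 81996554). By the span of that transcript, an alternative added after seeing the data, *Ccl1* was PI. With its annotated span it was also PI when LADs were joined across gaps of up to 50 kb, and PP when at least 50% of the span had to overlap. By its start site, at the far end of the annotated span (82119192), *Ccl1* was II. Its AMB call thus depended both on the long annotated span and on how LADs were joined.

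**Figure D3:**
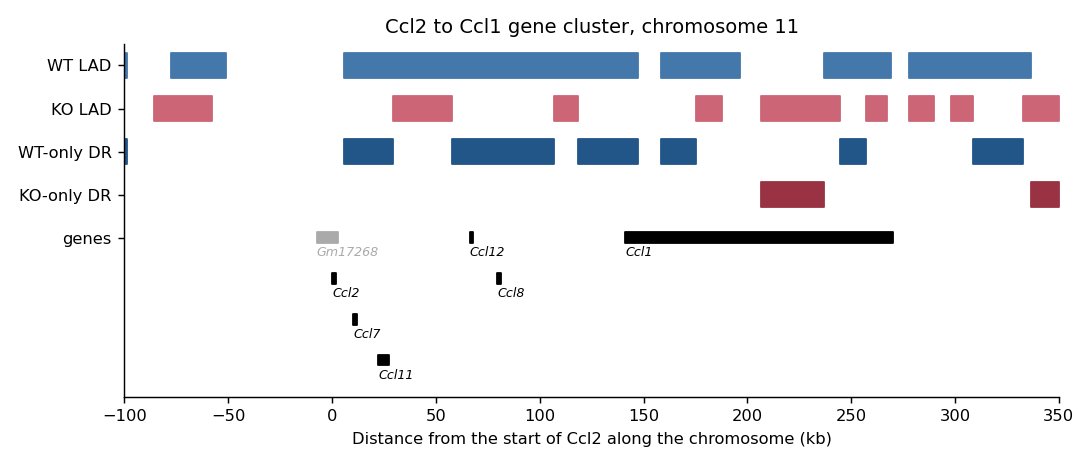
Map of the *Ccl2* to *Ccl1* cluster, with the distance from the annotated start of *Ccl2* in kb on the horizontal axis and rows for WT LADs, KO LADs, WT-only DRs, KO-only DRs and genes (members in black, other protein-coding genes in gray). One WT LAD of 142 kb spans *Ccl7* to *Ccl8*, and the KO LADs of 28.5 and 11.3 kb lie beside these genes and not on them.

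The territory on both sides of the cluster held DRs. In the 250 kb before *Ccl2*, WT LADs covered 71.0% and KO LADs 41.4%, with 30.4% in WT-only DRs and 0% in KO-only DRs. In the 250 kb after the *Ccl1* span they covered 61.8% and 62.9%, and similar sums there came from different stretches, with 23.9% in WT-only DRs and 26.9% in KO-only DRs. The other protein-coding gene inside the cluster, *Gm17268*, was II like *Ccl2*, which it overlaps.

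The receptor genes from *Ccr9* to *Ccr2* on chromosome 9 presented the IP, PP and PI classes in order along the chromosome. *Ccr9* and *Cxcr6* at the one end were IP, *Ccr1* and *Ccr1l1* in the middle were PP, and *Ccr3* and *Ccr2* beyond them were PI. WT-only and KO-only DRs thus lay on different genes of the same group.

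*Ccr9* (123587557 to 123691089, plus strand), which encodes the gut-homing receptor for Ccl25, was IP. WT LADs held 26.8% of its span and KO LADs 64.8%, with 46.6% in 4 KO-only DRs. Its start site was in a KO LAD and 16.2 kb from the nearest WT LAD, and 2 of its 3 exons were in a LAD of KO only. *Cxcr6* (123715595 to 123720872, plus strand), which encodes the Cxcl16 receptor of T and natural killer T cells, was 0% in WT LADs and 14.5% in a KO LAD that ended just past its start. That KO-only DR, of 25.8 kb (123690541 to 123716358), also reached the end of *Ccr9*. When 50% or more of the span had to overlap, *Ccr9* became PP and *Cxcr6* II.

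*Ccr1* (123876959 to 123883525, minus strand), which encodes an inflammatory receptor for Ccl3 and Ccl5, and its neighbor *Ccr1l1* (123891782 to 123893241, minus strand) were PP, each 100% in LADs of both genotypes. They lay in a WT LAD of 231 kb (123844652 to 124075437) that also held *Ccr3* and *Ccr2*. In KO, LADs of 101 and 48.4 kb covered part of that stretch. The first held *Ccr1* and *Ccr1l1* and ended within *Ccr3*, and the other lay between *Ccr3* and *Ccr2*.

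*Ccr3* (123936703 to 123946421, plus strand), which encodes the eotaxin receptor of eosinophils, was 100% in the WT LAD and 65.1% in a KO LAD. Its start site and 1 of its 2 exons were in LADs of both genotypes, and the other exon was in a LAD of WT only. Judged by its start site, by at least 50% of its span, or with LADs joined across gaps of up to 50 kb, *Ccr3* was PP.

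*Ccr2* (124016689 to 124028296, plus strand), the receptor through which monocytes respond to Ccl2, Ccl7 and Ccl12, was 100% in the WT LAD and 0% in KO LADs. Its start site was 0.652 kb from the end of the 48.4 kb KO LAD, so its promoter window lay wholly in the DR while a KO LAD ended close by. Both of its exons were in a LAD of WT only, in a DR of 59.4 kb with 156 GATC sites (124016038 to 124075437).

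**Figure D4:**
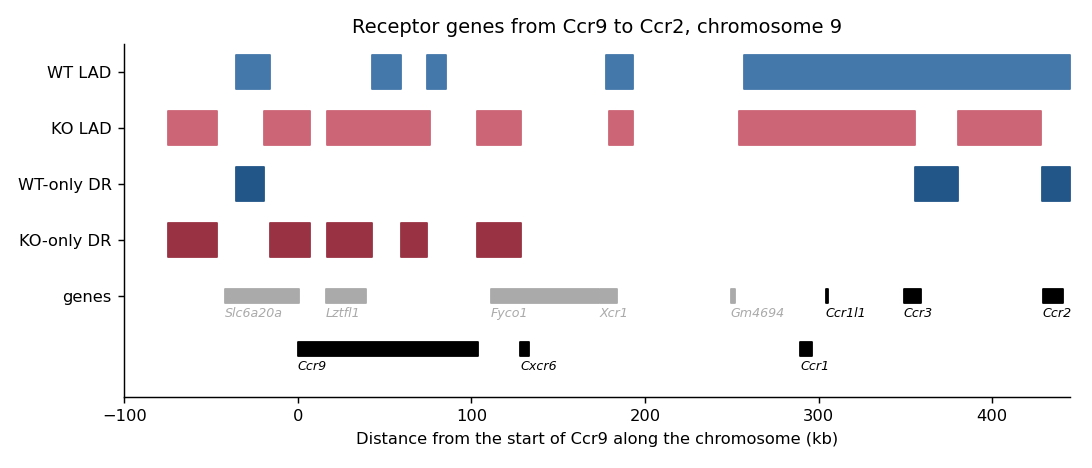
Map of the receptor genes from *Ccr9* to *Ccr2*, drawn like the *Ccl* map, with the distance from the annotated start of *Ccr9* in kb on the horizontal axis. KO-only DRs lie on *Ccr9* and *Cxcr6*, LADs of both genotypes on *Ccr1* and *Ccr1l1*, and WT-only DRs on the end of *Ccr3* and on *Ccr2*.

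Before *Ccr9*, coverage was low, and KO LADs held 19.1% of the 250 kb there and WT LADs 7.76%. Of the other protein-coding genes in the group, *Lztfl1* and *Fyco1* were IP, *Slc6a20a* was AMB, *Xcr1*, the receptor of the C chemokine Xcl1, was PP, and *Gm4694* was II. *Lztfl1* and *Fyco1* lay on KO-only DRs that also touched *Ccr9* or *Cxcr6*.

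The remaining IP members lay apart from these clusters. *Ccl20* (chromosome 1, 83113341 to 83115742, plus strand), which encodes the ligand of Ccr6, was 0% in WT LADs and 52.9% in a KO LAD of 12.4 kb that took in its start site. All 3 of its exons touched that LAD, and WT LADs came no nearer to the start site than 9.76 kb. In the 250 kb past *Ccl20*, however, WT LADs covered 87.6% and KO LADs 81.6%. When LADs were joined across gaps of up to 50 kb *Ccl20* was PP, and with the 100 kb centered on the gene it was AMB. *Cxcl12* (chromosome 6, 117118553 to 117131385, plus strand), which encodes the homeostatic ligand of Cxcr4, was 0% in WT LADs and 30.0% in a KO LAD of 24.8 kb at its 3′ end. Its start site was in no LAD, at 67.7 kb from a WT LAD and 8.98 kb from a KO LAD, so by start site alone *Cxcl12* was II.

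The CC ligands *Ccl21b* and *Ccl21c* of chromosome 4, which encode copies of the lymphoid ligand of Ccr7, were IP as well. *Ccl21b* (41774204 to 41775337, plus strand) was 0% in WT LADs and 99.2% in a KO LAD of 19.3 kb. *Ccl21c* (42391951 to 42393082, minus strand) was crossed by a WT LAD border, with 67.8% inside that LAD, and was 100% in LADs of the KO. Its start site was in LADs of both genotypes, so *Ccl21c* was PP by start site or by at least 50% of its span, and it was AMB with the 100 kb centered on it. The third copy, *Ccl21a*, was II, at 234 kb from a WT LAD and 46.7 kb from a KO LAD.

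These copies can hardly be told apart by sequence. Over their spans, *Ccl21a* and *Ccl21b* were identical at 99.5% of aligned bases, *Ccl21a* and *Ccl21c* at 99.3%, and *Ccl21b* and *Ccl21c* at 99.8%. Every 31-base word of *Ccl21a*, *Ccl21b*, *Ccl21c*, *Ccl27b* and *Ccl19* occurred at least once more in the assembly (100%), as did 70.7% of those of *Ccl27a*, where the median over members was 3.31%. How reads of such copies were placed by the authors is not given in the sources used here, so the position of the chromosome 4 members is uncertain. *Ccr3* and the printed PI genes held few repeated words, from 0% in *Ccl7*, *Ccl12* and *Ccl8* through 0.588% in *Ccr3* and 3.33% in *Ccr2* to 3.80% in *Ccl11*.

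The calls of *Ccl20* and *Ccl21b* also depended on the minimum length of a DR. With DRs of at least 20 kb both became II, and all 7 PI members were still PI. The DRs of the PI members were 23.8, 24.6, 49.1 and 59.4 kb long. Those of the IP members ranged from 12.4 kb at *Ccl20* to 25.8 kb at *Cxcr6*.

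*Ccl25*, which encodes the ligand of Ccr9 and is made by thymus and small intestine, was PP by its longer record (chromosome 8, 4325210 to 4360020, plus strand). The far end of that record lay in LADs, 17.5% of its span in WT and 14.1% in KO. The start of the record was 28.7 kb and 29.9 kb away from them, but its coding transcript of greatest exonic length began nearer to them, at 4349588. Of the 6 exons of that transcript, 2 touched a LAD of WT only, 2 touched LADs of both genotypes and 2 touched none. The shorter record (4325230 to 4348790) ended before these LADs and was II. When LAD differences of any length were counted, the longer record was PI.

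The 37 II members were in no LAD of either genotype. For 28 of them (75.7%) the nearest KO LAD was closer to the start site than the nearest WT LAD, and this held for 83.5% of all II genes. The median distance was 363 kb in WT and 51.1 kb in KO for II members, against 409 kb and 131 kb for all II genes. A KO LAD lay within 50 kb of the start site for 17 of the 37 (45.9%, against 26.7% of all II genes), and a WT LAD for 6 (16.2%, against 11.6%). The 17 are not independent, as *Cxcl3*, *Cxcl15*, *Cxcl1* and *Cxcl2* share a cluster. *Ccl27a*, *Ccl19* and *Ccl21a*, also among them, are chromosome 4 members of uncertain position.

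**Figure D5:**
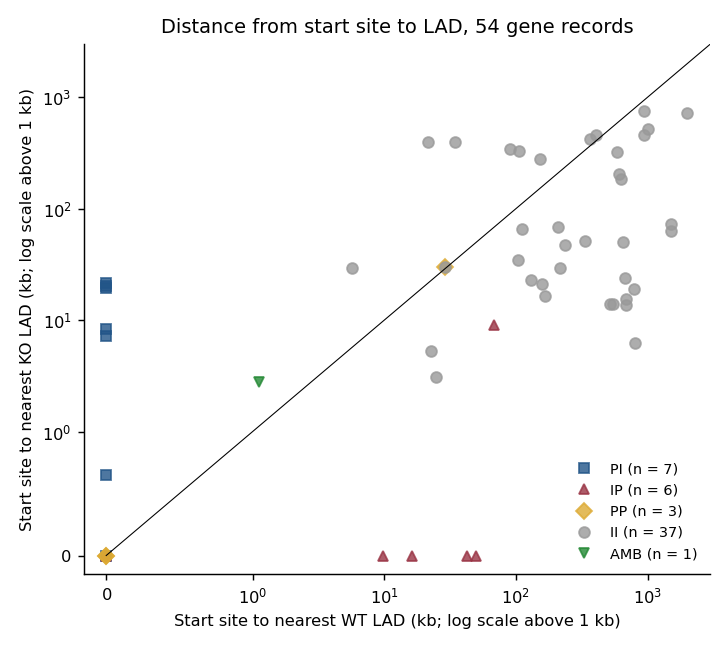
Distance from the start site of each of the 54 records to the nearest WT LAD (horizontal, kb) and nearest KO LAD (vertical, kb), on axes that are linear to 1 kb and logarithmic beyond, with the line of equal distances and a symbol for each class. Points under the line have a KO LAD nearer than a WT LAD, as 28 of the 37 II members do. All 7 PI points are at 0 kb in WT. *Ccr3* is at 0 kb in KO as well, and the other 6 lie between 0.652 and 21.7 kb in KO.

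The nearest to a LAD among II members, besides *Ccl2*, were *Cxcr4* and *Cxcl13*. *Cxcr4* (chromosome 1), which encodes the Cxcl12 receptor, lay 24.7 kb from a WT LAD and 3.11 kb from a KO LAD. *Cxcl13* (chromosome 5), which encodes the B cell attractant, lay 22.8 kb and 5.33 kb from them. Both became IP when LADs were joined across gaps of up to 50 kb. The farthest were *Ccr10* (chromosome 11), at 935 kb from a WT LAD and 757 kb from a KO LAD, *Cxcr5* (chromosome 9), the Cxcl13 receptor, at 1988 kb and 723 kb, and *Ccl17* (chromosome 8), a ligand of Ccr4, at 1007 kb and 522 kb.

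The neutrophil attractants *Cxcl5*, *Cxcl3*, *Cxcl15*, *Cxcl1* and *Cxcl2* form a cluster of 147 kb on chromosome 5 (91188325 to 91334935) and were all II. The WT LAD nearest to any of their start sites was 651 kb away. In KO, a LAD of 20.4 kb lay inside the cluster between *Cxcl15* and *Cxcl1* and covered 13.9% of it, and KO LADs covered 48.5% of the 250 kb past *Cxcl2*. The start sites were between 6.30 kb (*Cxcl2*) and 50.6 kb (*Cxcl5*) from a KO LAD, and all 5 genes became IP with the 100 kb centered on the gene. *Cxcr2*, which encodes the main receptor for neutrophil attractants, and its neighbor *Cxcr1* were II on chromosome 1, at 363 and 403 kb from a WT LAD and 418 and 457 kb from a KO LAD.

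The *Ccl5*, *Ccl9*, *Ccl6*, *Ccl3* and *Ccl4* cluster of chromosome 11 (83339280 to 83478185) was II throughout by gene span, and it showed the opposite order of distances. With the 100 kb centered on the gene, *Ccl3* and *Ccl4* were PI. Its start sites were 21.5 kb (*Ccl4*) to 154 kb (*Ccl5*) from a WT LAD and 278 kb (*Ccl5*) to 398 kb (*Ccl4*) from a KO LAD. These genes encode inflammatory CC ligands. WT LADs covered 12% of the 250 kb past *Ccl4* and KO LADs 0%.

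*Cxcl9* and *Cxcl10*, the interferon-induced ligands of Cxcr3, lay on chromosome 5 at 611 and 632 kb from a WT LAD and 205 and 184 kb from a KO LAD. *Cxcr3*, on the X chromosome, was 682 kb from a WT LAD and 13.8 kb from a KO LAD. *Ccl26* and the eotaxin gene *Ccl24*, also of chromosome 5, were 1505 and 1515 kb from a WT LAD and 63.1 and 72.6 kb from a KO LAD. On chromosome 8, *Ccl22* was 942 kb and 457 kb away from them, and its receptor gene *Ccr4* on chromosome 9 was 130 kb and 23.0 kb away.

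The other II members were single genes or the rest of the chromosome 4 group. *Ccl27a*, *Ccl27b* and *Ccl19* lay 103, 111 and 217 kb from a WT LAD and 35.0, 66.2 and 29.3 kb from a KO LAD. The receptor genes *Ccr6*, *Ccr7*, *Ccr8* and *Cxcr7* lay 166, 158, 209 and 337 kb from a WT LAD and 16.4, 21.2, 69.1 and 51.1 kb from a KO LAD. *Cxcl14*, *Cxcl16* and *Cxcl17* lay 519, 590 and 551 kb from a WT LAD and 14.1, 324 and 13.9 kb from a KO LAD.

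By role, CC genes held 12 of the 14 members called PI, IP or AMB. They are also most of the members, with 24 ligand and 11 receptor records of the 54. All PI members and *Ccl1* lay in 2 clusters of neighboring genes, so these calls are not independent. Among all genes, 5.43% were PI, 17.1% IP and 2.96% AMB. Of the 24 CC ligands, 4 were PI, 3 IP, 1 PP, 15 II and 1 AMB, and of the 11 CC receptors, 3 were PI, 1 IP, 2 PP and 5 II. The 12 CXC ligands comprised 1 IP and 11 II genes, and the 7 CXC receptors comprised 1 IP and 6 II genes. No CXC member was touched by a WT LAD, which held for 30.4% of all genes, and many CXC members share a cluster.

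Receptors and their known ligands were set side by side. *Ccr2* was PI together with the genes of its ligands Ccl7 and Ccl12, whereas the gene of its ligand Ccl2 was II. *Ccr3* was PI together with the gene of its ligand Ccl11, whereas that of Ccl24 was II. *Ccr9* was IP and its ligand's gene *Ccl25* was PP or II by record. Of the genes of Ccr7 ligands, *Ccl21b* and *Ccl21c* were IP and *Ccl19* and *Ccl21a* were II like *Ccr7* itself. The ligand genes *Ccl20* and *Cxcl12* were IP and the receptor genes *Ccr6*, *Cxcr4* and *Cxcr7* II, while *Cxcr6* was IP and *Cxcl16* II. The PI genes come from only 2 clusters, so the number of pairs with the same class was not read further.

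The number of GATC sites sets how finely a gene can be read. The 54 spans held from 0 (*Ccl17*) to 335 (*Ccl1*) sites with a median of 11.5. *Ccl12* held 2, *Ccl7* held 4, *Ccl8* 9, *Ccl11* 12, *Ccr3* 17 and *Ccr2* 29, so the calls of the short genes come from the DR around them more than from sites within the gene.

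Chemokine genes with other symbols were placed by the same rule. All 12 were found, with 13 records, of which 9 were II, 3 were PP (*Xcl1*, *Xcr1* and *Darc*, an atypical chemokine receptor) and 1 was IP. The IP gene was *Cklf* (chromosome 8, 106774803 to 106788836), which was 0% in WT LADs and 100% in KO LADs. None was PI. The shares over all genes were 56.6% II, 17.9% PP, 17.1% IP and 5.43% PI. With 13 records, a lack of PI genes cannot be told apart from a share of 5.43%.

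Of the 38 genes that act downstream of the receptors, 29 were II, 4 IP, 4 AMB, 1 PI and 0 PP. Over all genes, 56.6% were II, 17.1% IP, 2.96% AMB, 5.43% PI and 17.9% PP. The IP and PI genes were thus no larger a part of this list than of all genes, but the AMB genes, 4 of 38, were a larger one. The AMB genes are long, from 95.3 kb (*Gnai1*) to 516 kb (*Elmo1*), against a median span of 15.4 kb for all genes. The IP genes were *Pik3cg*, the catalytic subunit of the G protein-activated PI3-kinase, with 0% of its bases in LADs of WT and 100% in those of KO, the phospholipase C gene *Plcb2* with 0% and 84.4%, the exchange factor gene *Vav1* with 0% and 47.8%, and *Pik3r5*, a regulatory subunit for *Pik3cg*, with 0% and 3.49%. The PI gene was *Dock2*, a Rac activator of migrating leukocytes, with 89.4% and 86.5%, of which 2.91% of the span was in a WT-only DR. The AMB genes were *Gnai1* (90.7% and 87.2%), *Gng2* (94.1% and 72.4%), *Elmo1* (58.6% and 59.6%) and *Lyn* (19.7% and 20.5%).

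The deleted gene *Tm7sf2* (chromosome 19, 6062821 to 6068373) was II, at 1629 kb from a WT LAD and 912 kb from a KO LAD, and no member lay on chromosome 19. Of 6 hepatocyte marker genes 5 were found, of which 4 were II and *Cps1* was PI. Of 5 macrophage marker genes 3 were II, *Emr1* was PI and *Marco* was AMB. These are positions and do not measure which cells were present.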

How the data were processed

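DamID was performed on primary mouse hepatocytes, WT or KO for *Tm7sf2*, with 1 Dam-LaminB1 and 1 Dam library per genotype, each from the pooled DNA of 4 mice. The authors mapped reads to mm9, took log2 of Dam-LaminB1 over Dam for all *DpnI* fragments, and called LADs with DNAcopy at default parameters. The submitters' processing notes name BWA and limma. The deposited lists used here are intervals (chromosome, start and end) of WT and KO LADs, and of DRs from the authors' own subtraction. Repeating that subtraction, with stretches under 10 kb left out, gave all 7787 WT-only and 8208 KO-only DRs.

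Gene spans, exons (from the coding transcript of greatest exonic length), and sequences came from NCBIM37 with its GENCODE annotation, and positions are 1-based. Overlaps, distances, GATC counts and repeated words were computed with Python 3.11.15, aligned identities with Biopython 1.88, and matplotlib 3.10.9 drew the figures. Overlap and subtraction were first tested on simulated data. Members within 500 kb of the next formed a cluster. Every PI, IP, AMB and PP member was named but 1, which is in the totals and is not reported here, II members were named by cluster, and from the lists of other chemokine and of signaling genes the PI, IP and AMB genes were named, with *Tm7sf2*. The PP genes of the other chemokine list were named after their values were seen, and so were single neighbors. The members and lists were chosen with earlier results of these data known. Under another setting, a value was counted as unchanged within a factor of 1.5. *Cxcl11* and *Ccl28* are not analysed here, nor are the DamID profiles and the expression data.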

Additional observations from a re-analysis of the deposited data

How the results depend on the processing

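There is 1 library pair per genotype, so no replicate could be left out, and no paired analysis was possible because no result comes from a test. The number of PI members stayed between 5 and 10 under every other overlap, length and gene set tried, and was 2 when clusters and lone members were counted once, which also gave 23 with an II member. The 100 kb centered on each gene moved the calls most, to 16 II, 19 IP and 5 AMB members, with IP then above its share of all genes (35.2% against 27.1%). Asking for at least 50% of the span left 2 IP members and gave 7 PP members. It left 0 AMB among the members and among all genes, but the 2 kinds of DR do not overlap. A gene could thus be AMB there only with exactly 50% of its span in each, so this 0 says nothing of the AMB call. Merging of LADs at most 50 kb apart also gave 7 PP and 0 AMB members, and turned the order of the summed spans, to 43.1% in WT LADs and 45.2% in KO LADs. Averaged over members, the shares were 19.8% in WT LADs and 12.7% in KO LADs. With the other chemokine genes added there were 6 PP genes. The single AMB call became 0 by transcript span, and 2 with LAD differences of any length. By start site no gene can be AMB, since 1 base cannot lie in both kinds of DR. The limit of 10 kb leaves out *Ccl1*, so the 0 AMB calls under these 2 settings say nothing of that call. The transcript span and the limit of 10 kb were chosen after seeing the data. Restricting to autosomes, to at least 10% of the span, or to LADs or DRs of at least 20 kb left every number within a factor of 1.5. A LAD is at least 10 kb long in these lists, so a shorter LAD at a gene was not detectable. DRs under 10 kb were left out as well, so smaller shifts of a LAD border did not enter the main calls. With LAD differences of any length they did, and the longer *Ccl25* record became PI and *Ccr9* AMB.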
